A study of Mus musculus with 167 samples.

Results

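Mouse embryonic fibroblasts transduced with the PIP cocktail were compared with the same fibroblasts transduced with the SII cocktail, both collected 9 days after lentiviral transduction. The libraries were chosen by their titles alone, as the 4 labelled PIP d9 tdT+CD45+ and the 4 labelled C9a.SII d9 tdT+CD45+ (called PIP and SII here), which are 8 libraries, or 4.79% of the RNA-seq libraries of the series. Both groups were made from the C9a.MEF line, which is homozygous for a Cre allele of Clec9a (Cre/Cre) and for a tdTomato reporter at Rosa26 (tdTomato/tdTomato). In this line a cell turns red once the Clec9a locus, which in mice is active in dendritic cells and their precursors, has driven Cre. PIP delivered Pu.1 (gene Spi1), Irf4 and Prdm1, and SII delivered Spib, Irf8 and Ikzf2. Cells were kept on gelatin-coated plastic in DMEM with 10% serum and sorted as DAPI-negative cells that carried both the red reporter and CD45, the pan-leukocyte surface protein. RNA from 5000 sorted cells went into each extraction. The labels do not say whether replicates came from separate cultures or embryos, so the p-values measure only the spread between these libraries. In bulk RNA from sorted cells, fewer cells of a type and less RNA per cell cannot be told apart.

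PU.1 and Spi-B are ETS-family factors that bind a GGAA core. IRF4 and IRF8 bind DNA strongly when they pair with PU.1 or Spi-B on composite ETS-IRF elements, or with other partners on interferon-response elements. IRF8 is a lineage factor of type 1 conventional dendritic cells (cDC1) and of plasmacytoid dendritic cells (pDC), and IRF4 of type 2 conventional dendritic cells (cDC2). Spi-B is prominent in pDC. Blimp-1, the product of Prdm1, is a zinc-finger repressor known from plasma cells, and Helios, the product of Ikzf2, is an Ikaros-family zinc-finger protein.

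The PIP libraries held 10958041 to 15247372 counts. SII replicates 2 to 4 held 9255547 to 11682692 counts, and SII replicate 1 held 1146927, so 3 counts in it equal 2.62 CPM (counts scaled to a common library size) against 0.257 to 0.324 in the other SII libraries. SII replicate 1 also stood apart in that olfactory and vomeronasal receptor genes took 1.98% of its counts, against 0.196% to 0.26% in the other SII libraries and 0.0531% to 0.0794% in PIP. The overall counts of genes are therefore given with and without it. The levels of the 8 libraries are CPM scaled by TMM factors, which correct for differences in composition, while levels of other groups are CPM of the library total.

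The delivered factors separated the groups in every library. Spi1 was at 339, 326, 297 and 338 CPM in PIP replicates 1 to 4 and at 0, 6.4, 4.41 and 2.32 CPM in SII. Irf4 was at 363 to 403 CPM in PIP and 0.773 to 1.96 CPM in SII, and Prdm1 at 332 to 425 CPM and 9.8 to 13.5 CPM. In the other direction Spib was at 63.7 to 134.3 CPM in SII and 0.0839 to 0.489 CPM in PIP, Irf8 at 150 to 275 CPM and 1.1 to 2.94 CPM, and Ikzf2 at 412 to 691 CPM and 12.5 to 15.7 CPM. No factor's groups overlapped. The counts do not separate the delivered from the endogenous transcript of a factor. Ptprc, which encodes CD45, was at 63.8, 91.2, 72.4 and 99.5 CPM in PIP and 195, 140.8, 114.4 and 115.8 CPM in SII, a difference under 2-fold (log2 fold change -0.78, SE 0.20). It was at 0.288 CPM in the C9a.MEF group (mean of 4 libraries), and the PIP and SII ranges did not overlap.

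Of 15679 genes tested, 1715 were higher in PIP (10.9%) and 1809 higher in SII (11.5%), where a call needs an adjusted p under 0.05 in edgeR's quasi-likelihood test and a difference of at least 2-fold. Among the 9494 genes with a mean of at least 10 CPM in either group, 1134 were higher in PIP (11.9%) and 978 higher in SII (10.3%). Without SII replicate 1 those numbers were 1119 and 998. The genes called both with and without that library, in both fits for short, numbered 1069 for PIP and 930 for SII. Of the 2112 genes called at 10 CPM or more with all 8 libraries, 2068 had groups that did not overlap. Called genes of the lists were picked for naming from those without overlap. The share without overlap over all 9494 genes is not given here, and uncalled genes such as Fth1 and Col1a2 also lacked overlap. The 2068 therefore show nothing particular to called genes. The largest differences lay on the PIP side: 49 of the 1069 genes differed by a log2 fold change of at least 6, against 16 of the 930, and 21 against 3 differed by at least 8. The 21 include the delivered Irf4, and the 3 are the delivered Spib, Epha3 and Flvcr2. Without SII replicate 1, Epha3 and Flvcr2 fell to log2 fold changes of -2.66 and -3.12. In the starting line C9a.MEF, 710 of the 1069 and 688 of the 930 were at or above 10 CPM. The share over all 9494 genes was not computed, so these counts show nothing particular to called genes.

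**Figure D1:**
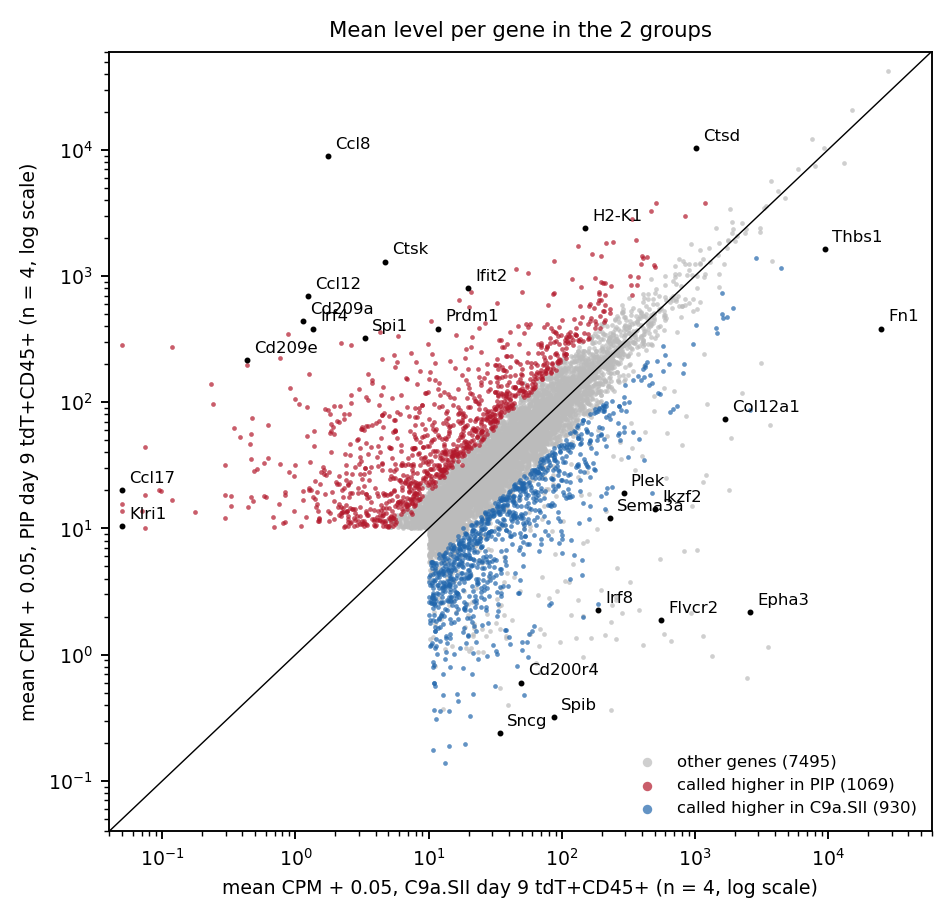
Mean level of each gene of at least 10 CPM in the 4 SII libraries (x axis) and the 4 PIP libraries (y axis), both in TMM-scaled CPM on log axes. Genes called in both fits are coloured by direction and a few are labelled. The 1069 genes higher in PIP spread farther from the diagonal than the 930 higher in SII, with Ccl8 and Fn1 among the farthest points on their sides.

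PIP cells carried far more RNA for chemokines, the secreted proteins that steer leukocytes through G-protein-coupled receptors. Ccl8, a CC chemokine that attracts monocytes and other leukocytes, was at 8980, 9243, 8349 and 9070 CPM in PIP and at 0.98, 3.54, 1.31 and 0.967 CPM in SII. All 4 PIP libraries lay within a narrow band and no SII library reached 10 CPM, with a log2 fold change of 12.23 (SE 0.56, adjusted p = 1.7e-06). Without SII replicate 2, the highest of its group, the value was 12.94. Ccl12, another monocyte attractant, was at 646 to 735 CPM in PIP and 0.967 to 1.64 CPM in SII (log2 fold change 9.09, SE 0.18). The eosinophil attractant Ccl11 was at 272, 286, 251 and 294 CPM in PIP, and its 3 counts over the 4 SII libraries give a ratio of 3110 (95% Poisson interval 1060 to 15100, for counting error only). C9a.MEF held Ccl11 at 70.5 CPM, below all PIP libraries and above all SII libraries. Ccl17, which acts on CCR4-bearing T cells, was at 17.1 to 22.2 CPM in PIP and had no count in SII, at least 229-fold higher in PIP by a floor of 3 counts over the group.

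Of the 12 CC chemokines tested 7 were higher in PIP and 0 in SII, and of the 12 CXC and related chemokines 8 were higher in PIP and 1, Cxcl14, in SII, against the shares of 10.9% and 11.5% of all genes tested. The medians of the log2 fold change were 2.89 and 2.66, beside 0.013 over all genes tested. Cxcl16, a membrane-bound chemokine that is also a scavenger receptor, was at 682 to 821 CPM in PIP and 14.7 to 28.4 CPM in SII. Cx3cl1, likewise membrane-bound, was at 84.4 to 103.3 CPM and 0.58 to 1.38 CPM. Ccl2, the main ligand of CCR2, was not among the called genes. It stood at 244 to 264 CPM in PIP and at 97, 249, 243 and 229 CPM in SII, so that SII replicates 2 to 4 lay close to PIP and replicate 1 apart (log2 fold change 0.31, SE 0.25, adjusted p = 0.34). Its receptor gene Ccr2 was at 45.3 to 65.5 CPM in PIP and 1.28 to 2.22 CPM in SII.

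C-type lectins of the CD209 (DC-SIGN) family, surface receptors that bind glycans of pathogens, formed a further group. Cd209a was at 428, 457, 428 and 452 CPM in PIP and 0, 1.77, 1.14 and 1.45 CPM in SII (log2 fold change 8.33, SE 0.28, adjusted p = 7.8e-09). Cd209e was at 217, 235, 197 and 218 CPM in PIP and 0.98, 0.295, 0.245 and 0 CPM in SII (log2 fold change 9.93, SE 0.38). No SII library passed 2 CPM for either gene. Cd209d, at 35.5 to 49.6 CPM in PIP, and Cd209f, at 10.2 to 18.3 CPM, each had 1 count over the SII libraries, which gives ratios of 1500 (interval 270 to 59400) and 461 (interval 82.7 to 18200). Cd209a was at 92.7 CPM in splenic cDC2 and 94 CPM in splenic pDC, and Cd209d at 70.9 CPM in pDC and 0.909 CPM in cDC2. Cd209e was at no more than 1.4 CPM on average in splenic cDC1, cDC2 or pDC. The CD209 genes are close paralogs in 1 cluster, and reads may be shared between them. Of the 10 genes tested in the list of CD209 genes and other C-type lectins, 5 were higher in PIP, all of them CD209 genes, and 2, Clec4e and Clec5a, were higher in SII.

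Other surface receptors among the 20 largest differences on the PIP side were Slamf7, a homophilic receptor of the SLAM family, and Timd4, a phosphatidylserine receptor for the uptake of dying cells. Slamf7 was at 177, 206, 196 and 205 CPM in PIP and 0, 0.689, 0.654 and 0.193 CPM in SII (log2 fold change 8.59, SE 0.28). Timd4 was at 17.4 to 19.1 CPM in PIP and had 1 count over the 4 SII libraries against 871 over the 4 PIP libraries. Klri1, a killer-cell lectin-like receptor, was at 9.29 to 11.3 CPM in PIP with no count in SII against 497 in PIP. Dnase1l3, a secreted DNase of dendritic cells and macrophages, was at 125.5 to 154.2 CPM in PIP and 0 to 0.295 CPM in SII (log2 fold change 9.13, SE 0.19). Slamf7 and Dnase1l3 were also high in splenic cDC1, at 338 and 902 CPM, whereas C9a.MEF held 0.0683 and 0.178 CPM. Nppc, which encodes C-type natriuretic peptide, was at 82.3 to 103.6 CPM in PIP and 0 to 0.572 CPM in SII, with a log2 fold change of 8.44 that became 9.83 without SII replicate 3. The antisense-named gene Crxos was at 14.9 to 16.4 CPM in PIP with no count in SII, at least 177-fold higher. It lies opposite Crx, and whether the counting used strand is not given in the sources used here, so reads of the pair cannot be told apart.

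Stretches of promoter just before the transcription start of some of these genes are shown because a letter pattern recurs in them. They are from RefSeq on GRCm38.p6, the assembly also called mm10, 110 bases each, 5′ to 3′ on the gene's strand, ending at the base before the start. Capitals mark every match to GGAANNGAAA, a composite of an ETS core and an IRF half-site, or to GAAANNGAAA, a pair of IRF half-sites, on either strand (read backwards as TTTCNNTTCC and TTTCNNTTTC). Overlapping matches share their letters. The stretches lie at chr11:82115075-82115184 on the + strand for Ccl8, chr8:3878500-3878609 on the - strand for Cd209d, chr8:3854287-3854396 on the - strand for Cd209e and chr11:46810689-46810798 on the + strand for Timd4.
Ccl8: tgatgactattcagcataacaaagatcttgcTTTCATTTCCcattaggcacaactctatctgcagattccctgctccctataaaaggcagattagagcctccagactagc
Cd209d: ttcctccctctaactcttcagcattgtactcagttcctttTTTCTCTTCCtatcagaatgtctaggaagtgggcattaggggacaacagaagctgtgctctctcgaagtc
Cd209e: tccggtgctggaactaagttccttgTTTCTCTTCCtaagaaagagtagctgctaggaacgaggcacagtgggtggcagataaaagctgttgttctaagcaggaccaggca
Timd4: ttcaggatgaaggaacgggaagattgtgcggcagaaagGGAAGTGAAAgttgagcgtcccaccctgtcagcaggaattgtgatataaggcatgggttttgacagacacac
The composite pattern started 79, 70, 85 and 72 bases before the start sites of Ccl8, Cd209d, Cd209e and Timd4. Cd209d and Cd209e hold the same letters TTTCTCTTCC, and as paralogs they are not independent cases.

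Windows from 250 bases before to 50 after a start site were searched for the same letters. Of the 20 genes with the largest log2 fold change on the PIP side, 18 have a window in the RefSeq table, and 8 of these hold GGAANNGAAA: Ccl8, Cd209d, Cd209e, Klri1, Timd4, Mmp25, Cd209a and Tgtp1. By windows that is 8 of 23 (34.8%), beside 2.72% of all windows of the same length and 2.33% of the windows of tested genes. Of the 20 genes at the SII end 16 have a window, and 0 of their 22 windows hold it. So few windows cannot tell 0 from the share of 2.33%. Among all 1069 genes higher in PIP the share was 4.9% of windows, and among the 930 higher in SII 2.21%. A match is a description of letters, and binding was not measured.

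**Figure D2:**
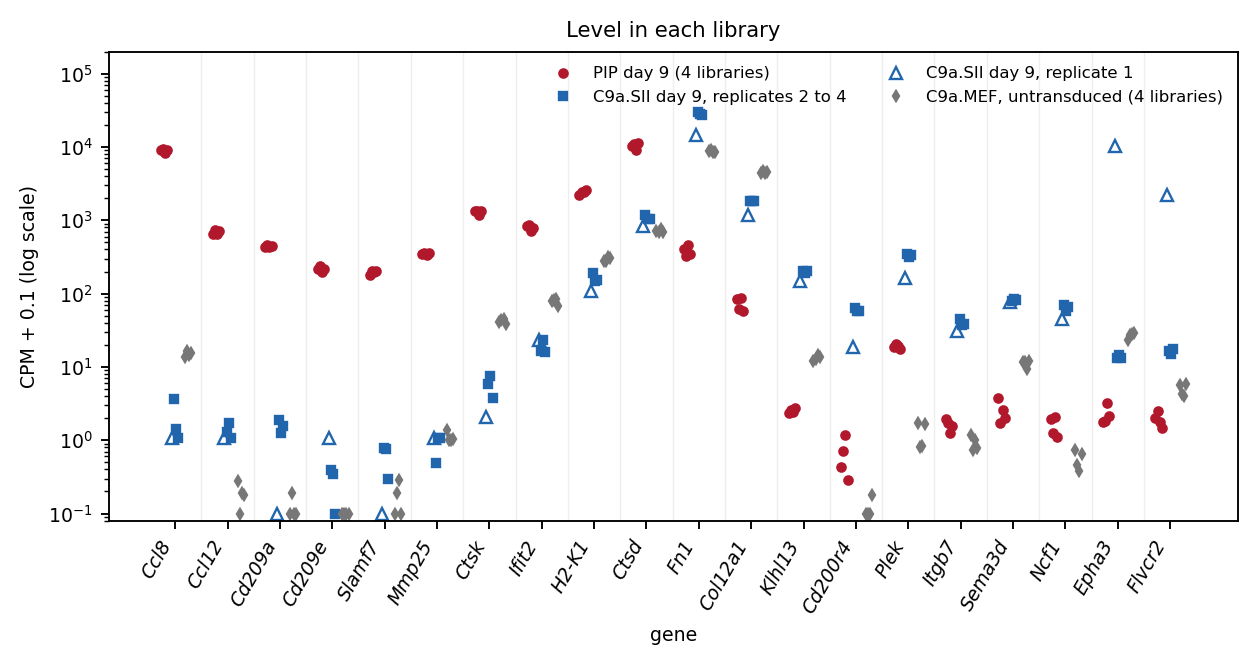
Level in each library (points, TMM-scaled CPM on a log axis for PIP and SII, CPM of the library total for C9a.MEF) of genes high in PIP and genes high in SII, with 4 libraries in each group. PIP libraries lie close together for the plotted genes, and SII replicate 1 departs from its group in several of them.

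Interferon-stimulated genes, which are normally switched on by interferon and act against viruses, were higher in PIP for most members. Of the 31 listed members tested, 28 were higher in PIP and 0 in SII, with and without SII replicate 1, and the median log2 fold change was 2.72. Ifit2, an RNA-binding inhibitor of translation, was at 833, 857, 711 and 790 CPM in PIP and 23.5, 16.3, 23.2 and 16 CPM in SII (log2 fold change 5.36, SE 0.17, adjusted p = 3e-09). Oas1a, a sensor of double-stranded RNA, was at 70 to 87.6 CPM in PIP and 0.98 to 2.36 CPM in SII, and the dynamin-like antiviral GTPase Mx1 at 89.5 to 113.5 CPM and 1.55 to 7.84 CPM. C9a.MEF lay between the groups for Ifit2 and Oas1a, at 78 and 32.6 CPM. Irf7, the interferon-induced regulator, differed less, at 201 to 238 CPM in PIP and 49 to 88.3 CPM in SII (log2 fold change 1.51, SE 0.16). The uncalled members were Oas2, Irf9 and Ifi35.

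The guanylate-binding and immunity-related GTPases, which attack the vacuoles of intracellular microbes, were higher in PIP for 14 of 14 tested members (median log2 fold change 2.98). Gbp6 was at 155.5, 163.4, 135.4 and 157.3 CPM in PIP and 11.8, 10, 8.99 and 9.18 CPM in SII (log2 fold change 3.98, SE 0.11). Tgtp1 was at 203 to 237 CPM and 0 to 1.31 CPM (log2 fold change 7.91, SE 0.33). Tgtp1 has a near-identical neighbour, Tgtp2, with which it can share reads. Tgtp2 had a log2 fold change of 6.55, and 7.16 without SII replicate 1. Zbp1, a sensor of Z-form nucleic acid, was at 157.6 to 184 CPM in PIP and 2.94 to 3.77 CPM in SII (log2 fold change 5.55, SE 0.11). Among 13 genes for cytosolic nucleic acid sensing 7 were higher in PIP and 1 in SII, namely Samhd1, a dNTP-degrading restriction factor, at 345 to 510 CPM in SII and 150.6 to 167.3 CPM in PIP.

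The 2 promoter stretches below are shown because they hold the paired IRF pattern. Tgtp1 lies at chr11:48992247-48992356 on the - strand and Oas1a at chr5:120907526-120907635 on the - strand, with the same length, source and capitals as above.
Tgtp1: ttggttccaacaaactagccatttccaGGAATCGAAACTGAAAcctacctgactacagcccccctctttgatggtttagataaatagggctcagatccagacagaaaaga
Oas1a: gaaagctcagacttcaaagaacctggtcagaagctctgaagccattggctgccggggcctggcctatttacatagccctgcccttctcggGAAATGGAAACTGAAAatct
In Tgtp1 a composite match and a paired match overlap, starting 83 and 77 bases before the start site, and in Oas1a paired matches start 20 and 14 bases before it. GAAANNGAAA was in 57.7% of the windows of the listed interferon-stimulated genes and in 9 of the 10 windows of the GTPase list, beside 3.44% of all windows. It was in 8.39% of the windows of genes higher in PIP and 3.54% of those higher in SII.

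Class I presentation genes, which load peptides from the cytosol for display to CD8 T cells, were higher in PIP for 19 of 19 members (18 without SII replicate 1, median log2 fold change 2.21). H2-K1, a classical class I heavy chain, was at 2213, 2433, 2419 and 2573 CPM in PIP and 106.8, 192, 146.9 and 155.3 CPM in SII (log2 fold change 4.0, SE 0.17, adjusted p = 1.9e-08). B2m, the shared light chain, was at 3212 to 3334 CPM in PIP and 317 to 552 CPM in SII, and H2-D1 at 2596 to 3042 CPM and 261 to 403 CPM. In C9a.MEF H2-K1 was at 295 CPM and B2m at 982 CPM, above all SII and below all PIP libraries. H2-Q6 and H2-Q7 had log2 fold changes of 4.72 and 4.96, but are near-identical and can share reads.

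Class II presentation, which serves CD4 T cells, was higher in PIP for 6 of 8 tested genes and in SII for 0, at low levels. Cd74, the class II invariant chain, was at 316 to 351 CPM in PIP and 74.8 to 106.4 CPM in SII (log2 fold change 1.84, SE 0.12), against 11080 CPM in splenic cDC1 and 10650 CPM in cDC2. The alpha chain gene H2-Aa was at 8.98, 13.2, 8.7 and 14.4 CPM in PIP and 0, 2.17, 2.86 and 0.677 CPM in SII. Its partner H2-Ab1 was at 2.93 to 8.63 CPM in PIP and 0 to 7.03 CPM in SII, with overlapping groups (log2 fold change 0.05, SE 0.48). The costimulatory receptor Cd40 was at 74.5 to 84.7 CPM in PIP and 1.58 to 3.92 CPM in SII.

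**Figure D3:**
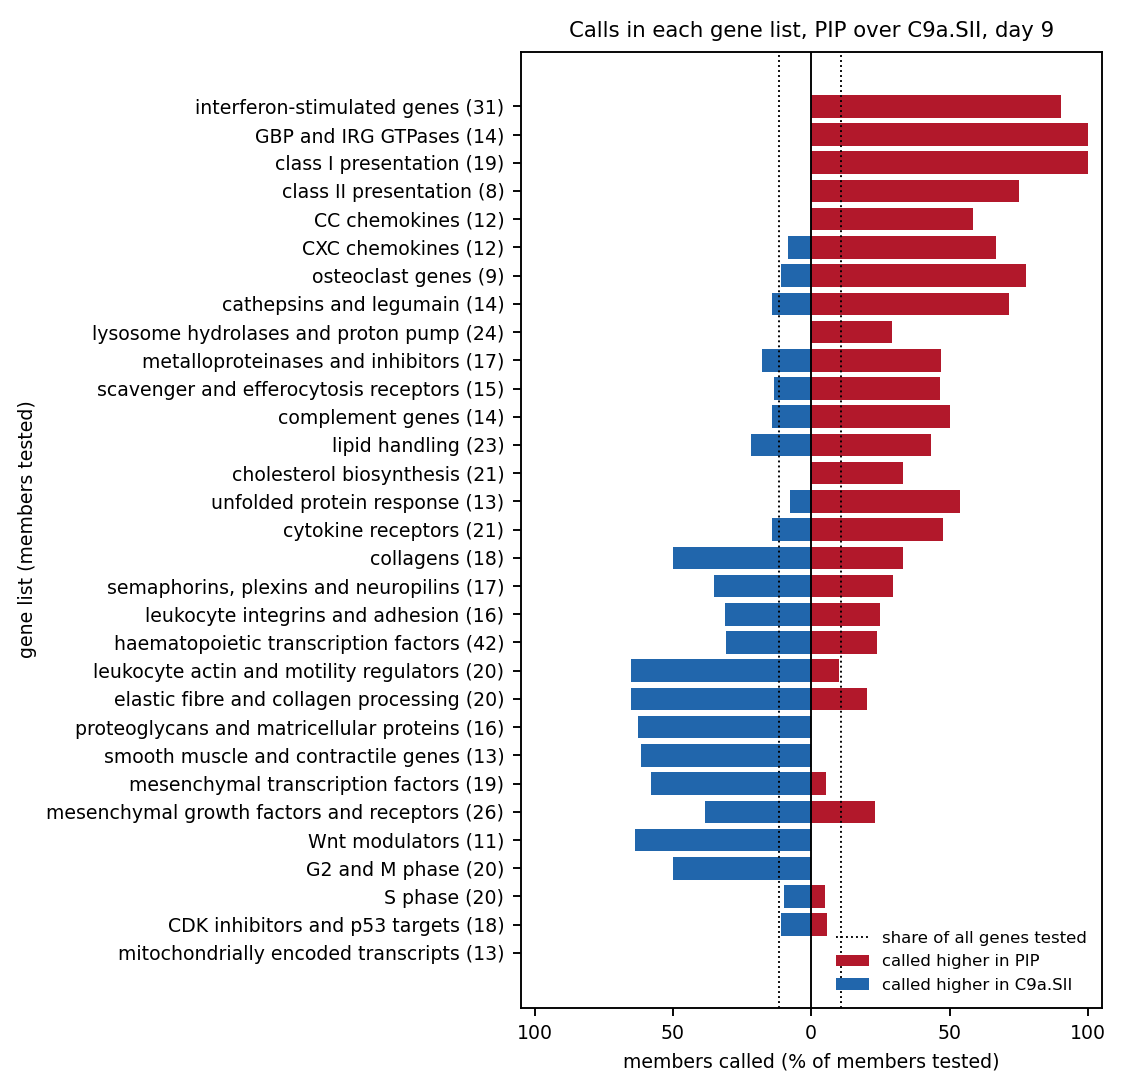
Share of the tested members of each gene list (x axis, percent) called higher in PIP and higher in SII, with dotted lines at the shares of all 15679 tested genes called in each direction. All called interferon-stimulated, GTPase and class I genes lie on the PIP side, and actin regulators, contractile and proteoglycan genes mostly on the SII side.

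Cytokine genes were higher in PIP for 6 of 14 tested members and in SII for 2, Il6 and Lif. Only 6 of the 14 had a group mean of at least 10 CPM. Of those, 2 were higher in PIP and 1 in SII, beside 11.9% and 10.3% of all genes at that level. Il1b, the pyrogenic cytokine interleukin 1 beta, was at 57.3, 75.2, 53 and 69 CPM in PIP and 0, 4.63, 2.21 and 0.677 CPM in SII (log2 fold change 4.75, SE 0.50, and 5.51 without SII replicate 2). Its natural antagonist Il1rn was at 119.3 to 146.3 CPM and 0 to 9.35 CPM, so agonist and antagonist were both higher in PIP. The signalling receptor for both, Il1r1, lay the other way, at 35.3 to 78.3 CPM in SII and 21.3 to 24.3 CPM in PIP. Il10ra, the specific chain of the receptor for the anti-inflammatory interleukin 10, was at 88 to 130 CPM in PIP and 11.8 to 17 CPM in SII, while the shared chain gene Il10rb was at 15.3 to 19.2 CPM and 31.4 to 35.4 CPM. Over 21 cytokine receptor genes 10 were higher in PIP (8 in both fits) and 3 in SII.

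Complement genes and genes for the uptake of dying cells were also weighted to PIP, with 7 of 14 and 7 of 15 tested members higher there and 2 of each higher in SII. Among members with a group mean of at least 10 CPM, 4 of 10 and 7 of 12 were higher in PIP and 1 and 0 in SII. Of all genes at that level 11.9% were higher in PIP and 10.3% in SII. C2, a protease of the classical pathway, was at 69.9 to 89.2 CPM in PIP and 12.7, 1.67, 2.13 and 1.06 CPM in SII. Gas6 and Pros1, the bridging ligands that link phosphatidylserine on dying cells to TAM receptors, were at 240 to 294 CPM and 351 to 376 CPM in PIP, against 29.8 to 42.2 CPM and 32.3 to 46 CPM in SII. Their log2 fold changes were 2.89 (SE 0.13) and 3.12 (SE 0.11). The scavenger receptor gene Marco varied within groups, at 28, 51, 19.2 and 53.8 CPM in PIP and 0, 9.06, 0.981 and 0.0967 CPM in SII (log2 fold change 3.61, SE 1.01, and 6.11 without SII replicate 2).

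Genes best known as quick responders to stimuli did not share a direction: Fos, an AP-1 subunit, was at 141.6 ± 3.72 CPM (SD, n = 4) in PIP and 6.86 to 14.2 CPM in SII, and the nuclear receptor gene Nr4a1 at 3.31 to 4.7 CPM and 12.4 to 19.6 CPM. Mt3, a metallothionein, was at 54.9 to 62.8 CPM in PIP and 0.492 to 4.9 CPM in SII. Of the antioxidant genes of the NRF2 programme, the quinone reductase gene Nqo1 and the cystine transporter gene Slc7a11 were higher in SII, at 13.7 to 23.1 CPM and 25.5 to 27.2 CPM against 0.643 to 1.76 CPM and 2.3 to 3.23 CPM. The iron exporter gene Slc40a1, ferroportin, was at 30.8 to 33.2 CPM in PIP and at 6.86, 1.28, 1.14 and 0.0967 CPM in SII. Fth1, the heavy chain of the iron store ferritin and one of the most abundant uncalled genes, was at 5067 to 6145 CPM in PIP and 2289 to 4607 CPM in SII (log2 fold change 0.62, SE 0.19). Lists of 16 iron and haem genes and 18 antioxidant genes had 3 and 2 members higher in PIP and 3 and 4 higher in SII, beside 10.9% and 11.5% of all genes tested. Of the 2 antioxidant genes higher in PIP, 1 was called in both fits.

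Proteolysis and lysosomal genes were among the most abundant of those higher in PIP. Ctsd, the aspartic protease of lysosomes, was at 10300, 11070, 8984 and 11150 CPM in PIP and 840, 1186, 1053 and 1025 CPM in SII (log2 fold change 3.34, SE 0.12, adjusted p = 6.3e-09). Ctsb, a cysteine protease, was at 3397 to 4036 CPM and 978 to 1332 CPM. Lgmn, legumain, which processes other cathepsins, was at 1601 to 1912 CPM and 108.6 to 162.7 CPM. Of 14 cathepsin and related genes tested, 10 were higher in PIP and 2 in SII. The 2 were Ctsl, at 391 to 490 CPM in SII and 198 to 212 CPM in PIP, and Ctsh, at 106.8 to 171 CPM and 67 to 79.7 CPM. Both lay close to the 2-fold limit (log2 fold changes -1.08 and -1.01). Of 24 genes for lysosomal hydrolases and the proton pump 7 were higher in PIP and 0 in SII, among them Psap, the saposin precursor, at 2634 to 3174 CPM against 752 to 952 CPM.

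Genes best known from osteoclasts, the bone-resorbing cells of the monocyte lineage, were higher in PIP for 7 of 9 tested members, with a median log2 fold change of 4.29. Of the 5 members with a group mean of at least 10 CPM, 4 were higher in PIP and 0 in SII, beside 11.9% and 10.3% of all such genes. Ctsk, the collagen-degrading cathepsin of osteoclasts, was at 1339, 1334, 1190 and 1345 CPM in PIP and 1.96, 5.71, 7.44 and 3.67 CPM in SII (log2 fold change 7.98, SE 0.33, adjusted p = 1.4e-07). Oscar, an Fc-gamma-chain-coupled collagen receptor, was at 14.9 to 17.8 CPM in PIP and 0.197 to 0.98 CPM in SII. C9a.MEF held Ctsk at 41.7 CPM, above all SII libraries, while splenic cDC1, cDC2 and pDC held under 1 CPM on average. The member higher in SII was Itgb3, and Nfatc1, the master regulator of osteoclasts, was at 60.4 to 72.9 CPM in PIP and 43.1 to 68.4 CPM in SII (log2 fold change 0.07, SE 0.13).

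Matrix metalloproteinases were higher in PIP for 8 of 17 tested genes of the list with their inhibitors, and 3 were higher in SII. Mmp13, a collagenase, was at 267, 346, 232 and 328 CPM in PIP and 3.92, 1.77, 0.818 and 2.13 CPM in SII (log2 fold change 7.42, SE 0.36). Mmp25, a membrane-anchored protease of leukocytes, was at 331 to 361 CPM and 0.394 to 0.981 CPM (log2 fold change 8.75, SE 0.23). The gelatinase Mmp9 was at 297 to 401 CPM in PIP and at 1.96, 12.3, 1.39 and 1.35 CPM in SII. Its log2 fold change of 6.25 became 7.96 without SII replicate 2, the library with the highest level of its group. The elastase Mmp12 behaved likewise, at 167.4 to 216 CPM in PIP and 10.8, 8.86, 1.23 and 1.35 CPM in SII, with 5.44 against 6.49 without SII replicate 2. On the SII side were Adamts5, Mmp2 (log2 fold change -1.44) and the inhibitor Timp3, at 90.2 to 257 CPM in SII and 15.2 to 20.7 CPM in PIP. The syndecan gene Sdc3, a cell-surface proteoglycan, had one of the 8 largest differences of level on the PIP side, at 3418 to 4093 CPM against 434 to 627 CPM. Timp2, at 1837 to 2252 CPM in PIP and 1899 to 2192 CPM in SII, had a log2 fold change of -0.00 (SE 0.09).

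Genes of cholesterol export, lipid transfer and cholesterol synthesis were among those higher in PIP. The exporters Abca1 and Abcg1 were at 607 to 800 CPM and 390 to 447 CPM in PIP, against 69.6 to 102.8 CPM and 17.6 to 35.8 CPM in SII (log2 fold changes 3.06 and 3.97). The phospholipid transfer protein gene Pltp was at 198 to 249 CPM and 13.7 to 23.9 CPM. Apoe, the apolipoprotein of macrophages, went the other way, at 4.53 to 6.79 CPM in PIP and at 25.5, 220, 165.7 and 156.8 CPM in SII, where replicate 1 lay apart. Of 23 lipid-handling genes 10 were higher in PIP and 5 in SII (9 and 4 in both fits). Of 21 genes of cholesterol synthesis 7 were higher in PIP and 0 in SII, with a median log2 fold change of 0.67. Of 13 genes of the unfolded protein response, which restores folding in the endoplasmic reticulum, 7 were higher in PIP (6 in both fits) and 1, Trib3, in SII, with the chaperone Calr at 1257 to 1444 CPM against 303 to 447 CPM.

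On the SII side the extracellular matrix stood out. Fn1, fibronectin, was at 14500, 29950, 28310 and 27590 CPM in SII and 403, 327, 457 and 347 CPM in PIP (log2 fold change -6.03, SE 0.28, adjusted p = 5.9e-07). All SII libraries lay above the 8829 CPM of C9a.MEF and all PIP libraries far below it. Thbs1, the matricellular protein thrombospondin-1, was at 6561 to 10920 CPM in SII and 1571 to 1727 CPM in PIP. Of 16 proteoglycan and matricellular genes tested, 10 were higher in SII and 0 in PIP, with summed levels of 24330 to 44520 CPM in SII and 4940 to 5196 CPM in PIP. Of 20 genes for elastic fibres and collagen processing, 13 were higher in SII and 4 in PIP (12 and 2 in both fits). The elastic fibre protein Fbln5, at 87.2 to 110 CPM against 7.82 to 10.5 CPM, had a log2 fold change of -3.38 (SE 0.12).

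Collagens were divided, with 9 of 18 higher in SII and 6 higher in PIP. Col12a1, which decorates fibrils, was at 1195, 1849, 1806 and 1841 CPM in SII and 83.7, 62.2, 87.9 and 58.1 CPM in PIP (log2 fold change -4.52, SE 0.20). Col4a6, a basement membrane chain, was at 44.1 to 62.6 CPM in SII and 0.0978 to 0.756 CPM in PIP (log2 fold change -6.86, SE 0.28). Another basement membrane chain, Col4a2, went the other way, at 1567 to 2043 CPM in PIP and 202 to 282 CPM in SII, as did the microfibrillar Col6a3, at 520 to 614 CPM and 14.7 to 32 CPM. The fibrillar Col3a1 was at 20.5 to 27.2 CPM in PIP and 92.1 to 164.2 CPM in SII, both far under the 2082 CPM of C9a.MEF. Col1a2, the other common fibrillar chain, was at 717 to 953 CPM in PIP and 524 to 706 CPM in SII, a difference under 2-fold.

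Contractile genes of the smooth muscle and myofibroblast programme were higher in SII for 8 of 13 members and in PIP for 0. Acta2, smooth muscle actin, was at 412, 354, 479 and 419 CPM in SII and 40.2, 30.5, 38.6 and 28.8 CPM in PIP (log2 fold change -3.59, SE 0.15, adjusted p = 1.4e-08). Tagln, an actin-binding protein, was at 169.1 to 266 CPM and 14.3 to 25.9 CPM. Both groups were below C9a.MEF, where Acta2 was at 1411 CPM and Tagln at 563 CPM. Of 19 mesenchymal transcription factor genes 11 were higher in SII and 1, Snai2, in PIP. Twist1, a regulator of mesenchyme, was at 18.6 to 40.6 CPM in SII and 4.09 to 5.62 CPM in PIP, and Prrx2, a homeobox gene of limb mesenchyme, at 20.6 to 26 CPM and 2.2 to 2.59 CPM. Secreted signals followed in part: of 26 mesenchymal growth factor and receptor genes 10 were higher in SII and 6 in PIP, and of 11 Wnt modulators 7 and 0. Vegfa, the angiogenic factor, was at 113.7 to 213 CPM in SII and 28.5 to 30.6 CPM in PIP. Fgf7, which acts on epithelia, was at 61.8 to 117.3 CPM and 4.5 to 8.06 CPM. Wnt5a, a ligand of non-canonical Wnt signalling, was at 35.3, 139.4, 135.9 and 139.3 CPM in SII and 16.3 to 22.7 CPM in PIP, where SII replicate 1 lay between PIP and the other SII libraries.

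Semaphorins, guidance signals first known from axons, differed by member. The secreted class 3 members Sema3a and Sema3d were at 124.5 to 281 CPM and 77.4 to 83 CPM in SII, against 10.6 to 14.7 CPM and 1.64 to 3.61 CPM in PIP. Sema4a, a membrane-bound semaphorin of immune cells, was at 116.4, 131.6, 130 and 140 CPM in PIP and 1.96, 0.492, 0.409 and 0.58 CPM in SII (log2 fold change 7.86, SE 0.22). Sema7a, anchored by a lipid, was at 24.5 to 29 CPM and 0.967 to 2.94 CPM. Over the list of 17 semaphorins, plexins and neuropilins 5 were higher in PIP and 6 in SII.

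Some groups of leukocyte genes were higher in SII. Of 20 genes tested for the actin and motility machinery of leukocytes, 13 were higher in SII and 2 in PIP, with a median log2 fold change of -1.92. Plek, pleckstrin, a substrate of protein kinase C, was at 160.7, 349, 319 and 338 CPM in SII and 18.4, 20.5, 19.4 and 17.5 CPM in PIP (log2 fold change -3.95, SE 0.24, adjusted p = 6.4e-07). It was at 1.16 CPM in C9a.MEF and 203 CPM in splenic cDC1. Vav1, a haematopoietic guanine nucleotide exchange factor, was at 25.8 to 34.7 CPM in SII and 3.02 to 6.16 CPM in PIP, and Myo1f, a leukocyte myosin, at 41.8 to 54.9 CPM and 1.64 to 4.01 CPM. The exceptions were Lcp1, L-plastin, at 209 to 219 CPM in PIP and 4.54 to 25.5 CPM in SII, and Lsp1, at 76.2 to 87.6 CPM and 14.7 to 18.1 CPM.

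Leukocyte integrins split by chain. The alpha 4 chain gene Itga4 was at 380, 833, 745 and 798 CPM in SII and 90.3, 88.1, 91.7 and 84.6 CPM in PIP, and Itgb7, the gut-homing partner of alpha 4, at 30.4, 44.5, 37.4 and 38.2 CPM and 1.85, 1.64, 1.17 and 1.47 CPM (log2 fold changes -2.96, SE 0.23, and -4.63, SE 0.17). Itgax, which encodes CD11c, and Itgam, which encodes CD11b, were higher in PIP. Itgax was at 73.9 to 82.5 CPM in PIP and 3.84 to 8.82 CPM in SII (log2 fold change 3.88, SE 0.20), and Itgam at 274 to 370 CPM and 55.9 to 95.7 CPM (log2 fold change 1.96, SE 0.17). The beta 2 chain gene Itgb2, which pairs with both, was at 11.9 to 20.8 CPM in PIP and 45.1 to 63.3 CPM in SII, the reverse of its partners.

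Several further haematopoietic genes were higher in SII. Laptm5, a lysosomal membrane protein of blood cells, was at 81.4 to 107.8 CPM in SII and 10.2 to 14 CPM in PIP. Cd200r4, an activating relative of the CD200 receptor, was at 18.6, 63.1, 58.1 and 58.6 CPM in SII and 0.184 to 1.08 CPM in PIP (log2 fold change -6.55, SE 0.49). Pira2, a paired immunoglobulin-like receptor, was at 7.84, 57.6, 54 and 60.2 CPM in SII and 3.27 to 6.38 CPM in PIP, where SII replicate 1 lay near PIP and the other SII libraries well above. Cd200r4 and Pira2 belong to families of similar genes whose reads can be shared. Ncf1, the organiser subunit of the phagocyte oxidase, was at 45.1 to 68.8 CPM in SII and 1.01 to 1.96 CPM in PIP (log2 fold change -5.34, SE 0.22).

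Transcription factor genes of blood cells other than the delivered ones were also divided, with 10 of 42 higher in PIP and 13 higher in SII. Etv3, an ETS repressor of monocytes, was at 996, 1068, 1071 and 1104 CPM in PIP and 57.8, 58.3, 55.2 and 53.5 CPM in SII (log2 fold change 4.24, SE 0.08, adjusted p = 3e-10). Ikzf1, Ikaros, was at 74.5 to 85.3 CPM in PIP and 1.96 to 2.71 CPM in SII, and Zbtb46, a factor of conventional dendritic cells, at 10.6 to 13.7 CPM and 1.87 to 4.9 CPM. Splenic cDC1 held Zbtb46 at 226 CPM. Lyl1, a haematopoietic bHLH factor, was at 8.82 to 14.7 CPM in SII and 0.293 to 0.75 CPM in PIP. Nfil3, which acts upstream of cDC1 and innate lymphoid cells, was at 23.1 to 29 CPM and 2.45 to 4.16 CPM, and Id2, an inhibitor of bHLH factors needed by cDC1, at 92.5 to 123.5 CPM and 47.6 to 51.7 CPM.

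Receptors for antibodies showed both directions within 1 family. Fcgr2b, the inhibitory IgG receptor, was at 157.8, 178, 169 and 171 CPM in PIP and 0, 2.76, 1.06 and 1.06 CPM in SII (log2 fold change 6.78, SE 0.36, and 7.39 without SII replicate 2). Fcgr3, an activating IgG receptor, was at 18.6, 68.9, 55.3 and 77.2 CPM in SII and 6.94 to 8.63 CPM in PIP (log2 fold change -2.94, SE 0.34). Of 5 Fc receptor genes tested 2 were higher in PIP and 2 in SII. The uncalled one was Fcgr1, the high-affinity IgG receptor, at 2336 CPM in SII replicate 1 and 0 to 0.387 CPM in the other SII libraries, with 0.685 to 1.7 CPM in PIP. Its log2 fold change was -8.65 (adjusted p = 0.1) with that library and 2.88 (adjusted p = 0.0019) without it. The promoter stretch of Fcgr2b, at chr1:170976072-170976181 on the - strand, is shown because it holds the composite pattern 35 bases before the start, with length, source and capitals as above.
Fcgr2b: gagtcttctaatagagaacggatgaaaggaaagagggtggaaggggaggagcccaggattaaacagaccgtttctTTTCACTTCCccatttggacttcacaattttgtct

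Cell-type markers fell on both sides. Of 5 genes tested from a pan-dendritic list, 3 were higher in PIP, Itgax and Zbtb46 among them, and 2 in SII. Dpp4, of the latter, was at 7.84 to 13.7 CPM in SII and 0.341 to 0.923 CPM in PIP. Flt3, a defining dendritic cell gene that was not tested, had 2 to 9 counts in each PIP library. In SII it had 2 to 3 counts in replicates 2 to 4 and 55 in replicate 1. Of 10 cDC1 markers tested 4 were higher in PIP and 3 in SII (2 in both fits), the latter including the delivered Irf8, and Wdfy4, which cDC1 need for cross-presentation, was at 78.1 to 111.8 CPM in PIP and 1.74 to 2.95 CPM in SII. The defining cDC1 gene Clec9a had 0 to 1 counts in each PIP library and 0 to 2 in each SII library, although the cells were sorted on a reporter of that locus. In this line the Clec9a locus carries Cre, and whether the counted transcript is intact there was not tested. Xcr1, the other defining cDC1 gene, had 0 to 3 counts in PIP and 1 to 21 in SII. Of 8 cDC2 markers 4 were higher in PIP and 0 in SII, Cd209a and the delivered Irf4 among them, and Sirpa, a defining one, had a log2 fold change of 0.05 (SE 0.21). Of 10 pDC markers 4 were higher in PIP and 2 in SII, Tlr9 and the delivered Spib. Klra17, a pDC receptor also called Ly49Q, was at 162.4 to 194 CPM in PIP and 0 to 14.5 CPM in SII, while the defining pDC gene Siglech had 8 to 18 counts in PIP and 0 to 2 in SII, 49 and 2 counts over the groups, against 2153 CPM in splenic pDC.

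Macrophage and monocyte markers were divided as well, with 4 of 12 higher in PIP and 3 in SII. Csf1r, the M-CSF receptor, was at 43.3, 44.4, 44.6 and 45.9 CPM in PIP and 7.84, 8.27, 1.88 and 1.93 CPM in SII (log2 fold change 3.39, SE 0.48, and 4.23 without SII replicate 2). Adgre1, which encodes F4/80, was at 0.923, 1.02, 0.196 and 0.826 CPM in PIP and 24.5, 24.5, 13.2 and 10.3 CPM in SII (log2 fold change -4.48, SE 0.43). These 2 defining macrophage genes thus lay in opposite directions. Lyz2, lysozyme M, was at 0.613 to 2.27 CPM in PIP and at 20.6, 134.7, 22.9 and 50.6 CPM in SII (log2 fold change -5.42, and -4.55 without SII replicate 2). Summed over the tested members only, granulocyte markers (1 of 10 tested) reached at most 5.29 CPM and T and NK markers (1 of 8) 2.94 CPM. B cell markers (3 of 8) reached at most 11.2 CPM and epithelial markers (2 of 6) 9.8 CPM in any of the 8 libraries. Members not tested are left out of all the sums given here, so these set no upper limit for a whole list. Endothelial markers summed to 2.85 to 10.7 CPM in PIP and 19.5 to 52.9 CPM in SII, with Kdr, the VEGF receptor gene, the only member tested. Muscle markers summed to 12.1 to 19.1 CPM in PIP and 9.65 to 778 CPM in SII, the highest in replicate 1, and 0 of 4 tested were called. Mast cell and basophil markers summed to 4.3 to 7.56 CPM in PIP and 15.7 to 23.3 CPM in SII, and adipocyte markers to 2.69 to 3.76 CPM and 6.67 to 14.7 CPM. Erythroid and platelet markers summed to 4.01 to 5.45 CPM in PIP and 0.409 to 0.98 CPM in SII. The part of these marker lists in the results was not tested.

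Outside these families, the genes at the SII end were of mixed kinds. Klhl13, an adaptor of a ubiquitin ligase in mitosis, was at 187 ± 27.3 CPM (SD, n = 4) in SII, with 202, 192 and 206 CPM in replicates 2 to 4, and at 2.27, 2.52, 2.35 and 2.66 CPM in PIP (log2 fold change -6.25, SE 0.15, adjusted p = 5.2e-10). Sncg, gamma-synuclein, was at 16.7, 38.5, 41.9 and 40 CPM in SII and 0.168 to 0.205 CPM in PIP (log2 fold change -7.49, SE 0.33). Fabp7, a fatty acid binding protein of glia, was at 8.82 to 16 CPM in SII and 0 to 0.184 CPM in PIP, and Maob, monoamine oxidase B, at 7.84, 39.7, 36.6 and 41 CPM and 0.341 to 0.734 CPM. P2ry1, a receptor for ADP, was at 15.6 to 18 CPM in SII and 0.252 to 0.459 CPM in PIP, whereas P2ry6, a receptor for UDP, was at 27.5 to 38.9 CPM in PIP and 0 to 0.886 CPM in SII. Olr1, a receptor for oxidised LDL, was at 33.3 to 78.7 CPM in SII and 0.918 to 2.25 CPM in PIP. By difference of level rather than fold, Nedd4, a ubiquitin ligase gene, and Ahnak, a giant scaffold protein gene, were among the 8 largest on the SII side, at 1453 to 1720 CPM and 2836 to 2960 CPM against 442 to 503 CPM and 1308 to 1449 CPM. By log2 fold change Epha3, Flvcr2 and Cyp26b1 also ranked there, but through 1 library. Epha3, an ephrin receptor, was at 10370 CPM in SII replicate 1 and 13 to 14.3 CPM in the others, and its log2 fold change went from -10.25 to -2.66 without that library. The same change was -8.21 to -3.12 for Flvcr2 and -6.09 to -3.53 for Cyp26b1, which were at 2181 and 508 CPM in that library.

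Of 20 genes of G2 and M phase 10 were higher in SII and 0 in PIP, 9 were called without SII replicate 1, and 6 without PIP replicate 1 or without PIP replicate 2. Most of the 20 were low: only 4 had a group mean of at least 10 CPM, and 2 of those were higher in SII. Mki67, the proliferation marker, was at 5.57 to 8.59 CPM in PIP and at 210, 25.2, 23.6 and 22 CPM in SII, where replicate 1 alone was above the 153.4 CPM of C9a.MEF. Its log2 fold change was -2.99, and -1.62 without SII replicate 1. Of 20 genes of S phase 1 was higher in PIP and 2 in SII, with a median log2 fold change of -0.19. Of 13 mitochondrially encoded transcripts 0 were called in either direction by edgeR's test with its 2-fold limit. The most abundant of these, mt-Co1, a subunit of cytochrome oxidase, differed by a log2 fold change of 0.51 (SE 0.10, adjusted p = 0.0014), under that limit. Of 18 glycolysis genes 1, Pfkp, was higher in PIP and 3, Pfkl, Ldha and Slc16a3, in SII. Of 18 p53 target and CDK inhibitor genes 1, Cdkn1a, was higher in PIP and 2, Cdkn1c and Pmaip1, in SII. Among all genes tested 10.9% were higher in PIP and 11.5% in SII, so the lists of S phase, glycolysis and p53 target and CDK inhibitor genes did not stand out.

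A set of 78 genes, identified from libraries outside the comparison because their deviations from the group means correlated at 0.7 or more with those of the vomeronasal receptor gene Vmn2r113, ran through the SII side. The 3 libraries outside the comparison whose delivered factors go against their label, all of the reporter-only sort on days 3 and 6, were left out, and none of them is in a group whose levels are given here. Of these 78 genes, 71 were higher in SII and 0 in PIP. The set took 0.449% to 0.5% of counts in PIP, 1.91% to 2.2% in SII replicates 2 to 4 and 1.06% in SII replicate 1, beside 0.847% to 1.17% in C9a.MEF. Pcm1, a centriolar satellite protein gene in the set, was at 968 to 1231 CPM in PIP and 3545 to 5180 CPM in SII. The fit was not run again without the set. Taking its genes out of the calls left 1738 higher in SII, from 1809, and 1715 higher in PIP. Both numbers follow by subtraction alone. In the CD45-sorted SII libraries the set took 0.656% and 0.456% in replicates 1 and 2, and 2.29% and 1.93% in replicates 3 and 4, so that its share differed among libraries of 1 label. Its part in the other results was not tested.

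The same 2 cocktails were compared on the same day in cells sorted on CD45 alone and on the reporter alone, in libraries not used above. Of the 1069 genes higher in PIP, 878 (82.1%) were also called higher in PIP in the CD45 sort and 887 (83%) in the reporter sort, where 9.22% and 10% of all tested genes, and 10.6% and 11.7% of those at 10 CPM or more, were called in that direction. Of the 930 higher in SII, 760 (81.7%) and 729 (78.4%) were called again, against 11.8% and 9.79% of all tested genes and 9.91% and 9.89% of those at 10 CPM or more. None of the 1069 or the 930 was called in the opposite direction in either sort. Across 9483 and 9488 genes the log2 fold changes correlated with those of the double sort at Pearson's r of 0.884 and 0.903, a description across genes, which are not independent. The labels do not say whether the sorts shared cultures.

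Single genes followed that pattern unevenly. Ccl8 was at 9400 ± 425 CPM (SD, n = 4, as for all values here) in PIP and 4.02 ± 3.85 CPM in SII of the CD45 sort. Its log2 fold change there was 11.15. In the reporter sort it was at 6870 ± 772 CPM in PIP and 26.9 ± 14 CPM in SII, where its log2 fold change was 7.98. Fn1 was at 640 to 1031 CPM in PIP and 36510 ± 9967 CPM in SII of the CD45 sort, and at 483.5 ± 121.9 CPM and 34050 ± 1993 CPM in the reporter sort. Serping1, an inhibitor of the complement protease C1, was called in the double sort (log2 fold change 4.96, SE 0.15) but not in the other sorts, where the values were 2.00 (SE 0.89, adjusted p = 0.11) and 2.46 (SE 0.94, adjusted p = 0.078). In the CD45 sort its SII libraries ran from 1.77 to 43.4 CPM, replicates 1 and 2 being the high ones. Pcm1 likewise missed the threshold in both other sorts (adjusted p = 0.077 and 0.14).

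**Figure D4:**
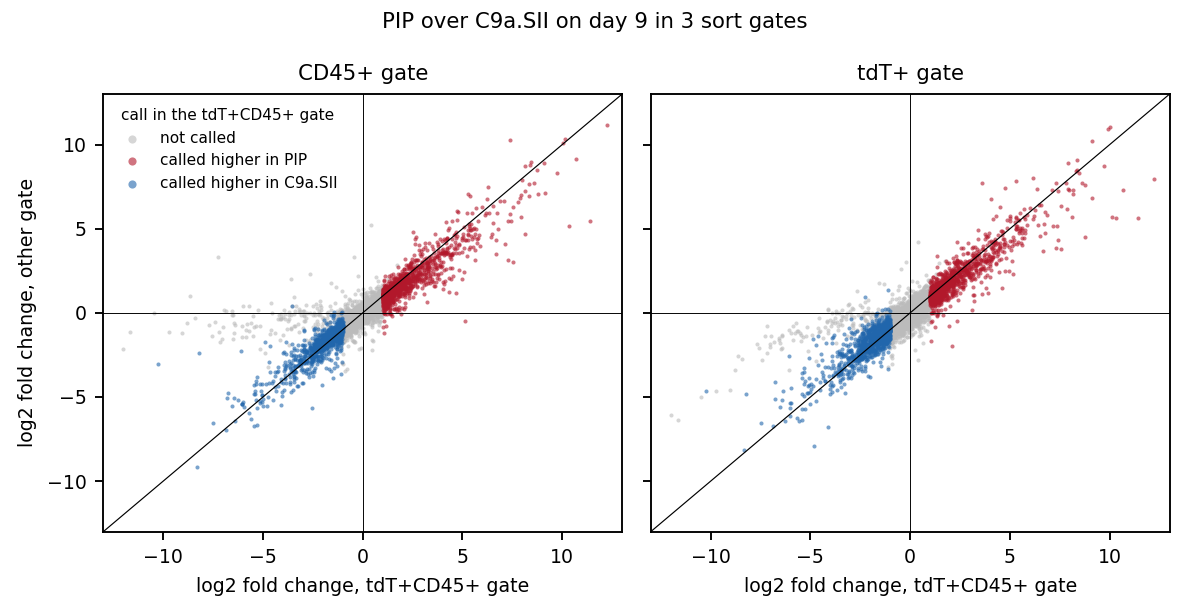
Log2 fold change of PIP over SII in the double sort (x axis) against that in the CD45 sort and in the reporter sort (y axes), 1 point per gene of at least 10 CPM, with called genes coloured. Points follow the diagonal, with Pearson's r of 0.884 and 0.903 across genes, and none of the 1069 or the 930 genes is called in the opposite direction.

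The groups were also sampled at days 3 and 6 in the double sort, shown here as levels without a test. Ccl8 was at 2225 to 5106 CPM in the 3 PIP libraries of day 3 and at 4416 to 7981 CPM in the 4 of day 6, against at most 7.33 CPM in any SII library of those days. Cd209e was at 4.29 to 4.66 CPM in PIP on day 3, 91.7 to 113.2 CPM on day 6 and above all of these on day 9. H2-K1 was at 541 to 653 CPM on day 3 and 1809 to 2311 CPM on day 6. In SII, Fn1 was already at 19310 to 33160 CPM on day 3, and Pira2 went from 2.28 to 10.9 CPM on day 3 to 31.1 to 45.8 CPM on day 6. PIP replicate 3 of day 3 and PIP replicate 4 of day 6 stood apart from their groups: for Fn1 they held 4341 and 3066 CPM, while the lowest PIP libraries of those days held 1339 and 310 CPM and the medians were 1342 and 394 CPM.

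**Figure D5:**
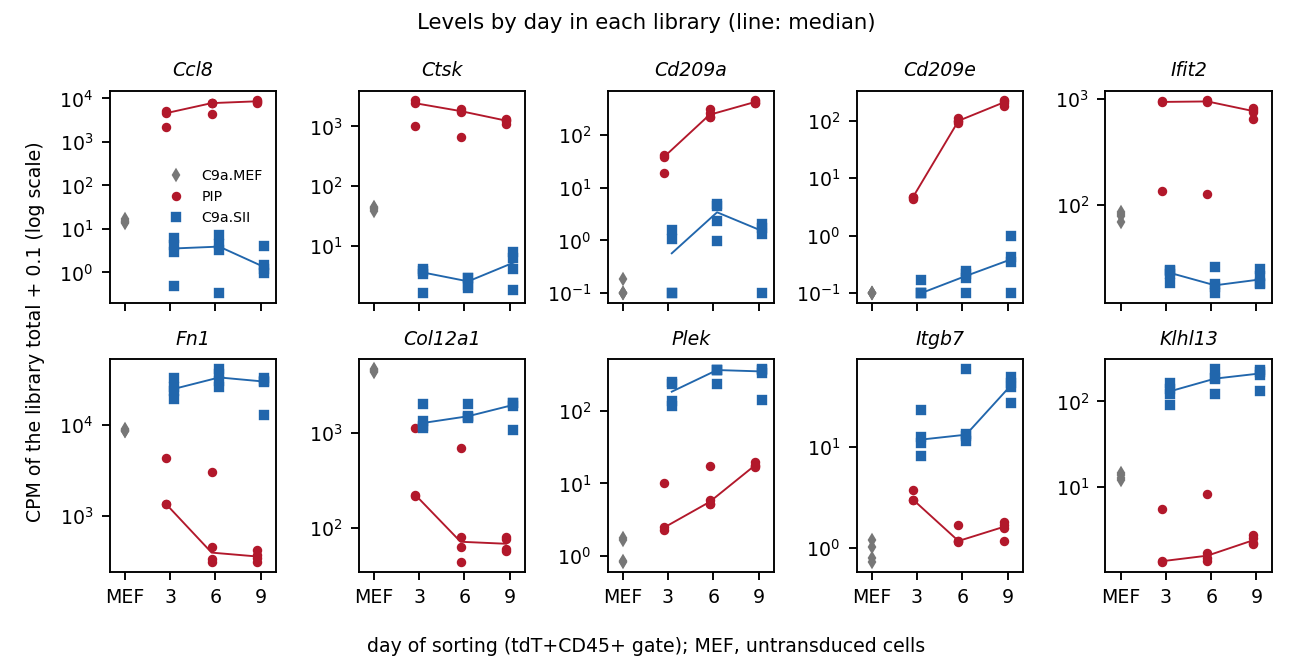
Level by day (3, 6 and 9 after transduction; CPM of the library total on a log axis) in each PIP and SII library of the double sort, 1 panel per gene. Ccl8 and Ctsk are high in PIP from day 3, Cd209e increases over the days, and the PIP libraries that stand apart on days 3 and 6 lie nearer to SII for Fn1.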

How the data were processed

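Counts per Ensembl gene, raw and not normalized, were deposited by the authors for 167 mouse libraries made with a stranded total RNA kit. The submitters' processing notes name STAR 2.7.9a, Salmon 1.10.1 and mm10. Which tool gave the counts, the annotation and the use of strand are not given in the sources used here. Of 57010 identifiers 52029 were matched to a symbol in the reference gene name table.

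PIP and SII libraries of the double sort were compared with edgeR 4.0.16 in R 4.3.3 (filterByExpr, TMM factors, robust quasi-likelihood test, Benjamini-Hochberg adjustment over all tested genes). A call needs an adjusted p under 0.05 and at least 2-fold. The SE is the size of the log2 fold change over the square root of F. Same-numbered replicates were not treated as pairs (correlations of deviations 0.025 to 0.082). The labels state no pairing, and whether same-numbered libraries shared cultures was not tested. No pair of replicates agreed within sampling noise. Promoters are from RefSeq (GRCm38.p6). The tests were checked on simulated data.

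Named genes are the delivered factors and sort markers, then, among non-overlapping genes called in both fits at 10 CPM or more with an established name, the 20 largest log2 fold changes and 8 largest CPM differences per direction, and up to 4, 2 and 1 genes of each list by fold and level. Members of small counts, Clec9a, Flt3 and Vmn2r113 were named after their values were seen. The members and all 63 lists were chosen with earlier results of these data known. Alternatives were other size factors, DESeq2 1.42.0, no filter, 1 fit over all groups, a replicate block and each library left out. The precision given by depth is the CPM of 3 counts, and Poisson intervals cover counting error only.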

Additional observations from a re-analysis of the deposited data

Results flagged for a closer look

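In each group of 4 libraries, the distance from the highest or lowest library to its nearest neighbour was divided by the range of the group, for the CPM of 160 of the genes named in the text. Of the 320 groups 49 passed Dixon's 95% critical value (15.3%). SII made up 38 of them and PIP 11. For normally distributed values chance flags about 1 group in 20. Groups with few counts do not hold such values, so the 15.3% cannot be set against that rate.

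SII replicate 1, the library with 1146927 counts, was the highest of its group for 14 genes, with these ratios of gap to range: C2 (0.909), Cyp26b1 (0.988), Epha3 (1.0), Fcgr1 (1.0), Flvcr2 (0.999), Irf8 (0.899), Kdr (0.911), Mki67 (0.983), Mt3 (0.908), Mx1 (0.856), Oscar (0.881), Sema4a (0.89), Sema7a (0.869) and Tgtp2 (0.853). It was the lowest for another 14 genes: Calr (0.981), Ccl2 (0.869), Cd200r4 (0.888), Col12a1 (0.934), Fn1 (0.847), Il10rb (0.914), Il1r1 (0.898), Maob (0.868), Nfatc1 (0.899), Pira2 (0.88), Plek (0.841), Sncg (0.867), Twist1 (0.91) and Wnt5a (0.966).

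Other SII libraries stood apart for Ahnak (0.871), Ccl8 (0.868), Marco (0.892), Mmp25 (0.976), Mmp9 (0.945) and Prrx2 (0.83), where replicate 2 was the lowest for Mmp25, replicate 3 the highest for Ahnak and replicate 2 the highest for the rest. A single library held all the counts of the group for Cd209d (1.0), Cd209f (1.0), Siglech (1.0) and Timd4 (1.0), which fixes the ratio at 1.0. In SII replicate 1, Oscar, Sema4a and Sema7a were at 0.98, 1.96 and 2.94 CPM, where 3 counts are 2.62 CPM, so counting limits these flags too.

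PIP replicate 3 was the lowest of its group for Ctsk (0.929), Ctsl (0.865), Fcgr1 (0.893), H2-Q6 (0.853), Itgax (0.92) and Pcm1 (0.92). Other PIP libraries, or the same one as the highest, stood apart for B2m (0.836), Fcgr3 (0.833), Ldha (0.953), Pfkp (0.91) and Sirpa (0.965).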

How the results depend on the processing

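In the double sort the number of genes higher in PIP ran from 1686 to 1926 and the number higher in SII from 1704 to 2052 when each library was left out in turn. The other settings gave 1705 and 1818 with DESeq2's size factors, 1829 and 2161 with DESeq2's Wald test, 2029 and 2051 without a filter, and 2041 and 2450 in 1 fit over all groups. All of these lie within 1.5 times the main counts of 1715 and 1809. At 10 CPM or more the range over the same settings was 1119 to 1237 for PIP and 874 to 1123 for SII.

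Fitting the replicate number as a block gave 1662 genes higher in PIP and 1748 higher in SII, and 1508 and 1859 in the CD45 sort and 1459 and 1345 in the reporter sort. The numbers share no stated origin, and libraries with the same number in the 2 groups correlated at 0.025 to 0.082 in the double sort, 0.087 to 0.222 in the CD45 sort and -0.336 to -0.066 in the reporter sort, so that in no sort was every pair over 0.1. Not every library correlated best with its own number. In the CD45 sort, leaving out SII replicates 1 and 2, a choice made after seeing the data, gave 1747 and 1820, against 1479 and 1897 with all libraries. Among named genes, the log2 fold change of Fcgr1 ran from -9.05 to 2.88 as each library was left out, the last value without SII replicate 1, which held nearly all its SII counts. Some folds near 0 also changed sign when a library was left out, without a call in either fit: without SII replicate 1, H2-Ab1 went from 0.05 to -0.10, Sirpa from 0.05 to -0.12 and Nfatc1 from 0.07 to -0.04. Depth limits low genes in SII most in replicate 1, where 3 counts are 2.62 CPM.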
